A study of Mus musculus with 6 samples.

Results

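FXR ChIP-seq peaks that fell in short or long interspersed nuclear elements (SINEs and LINEs) made up 1879 of the 20040 peaks called in Bcl6fl/fl livers (9.38%) and 1017 of the 12495 peaks called in Bcl6LKO livers (8.14%), 2896 of 32535 in all. They were taken as every peak whose detailed annotation in the deposited tables named a repeat of the SINE or the LINE class. SINEs held 1325 of the Bcl6fl/fl peaks (6.61%) and 730 of the Bcl6LKO peaks (5.84%), and LINEs held 554 (2.76%) and 287 (2.30%). Samples were livers of C57BL/6 mice. Sex, age and feeding state were not in the labels, while the study describes its control FXR data as from male livers and its animals as fed ad libitum or fasted briefly. Bcl6fl/fl mice, which carry floxed Bcl6 alleles and are labelled WT, served as the control. Bcl6LKO mice, labelled LKO, carry the same floxed alleles with Alb-cre, a transgene in which the albumin promoter drives the recombinase in hepatocytes. Bcl6 in other liver cells was not examined here. For each genotype, FXR was precipitated in 2 libraries and 1 further library held input, that is, chromatin sequenced without immunoprecipitation. The labels do not say whether replicates came from separate animals. Peaks were called once per genotype on its pooled ChIP libraries, so the lists have no replicate of their own and shares of peaks have no replicate error.

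FXR is a nuclear receptor for bile acids that binds DNA with its partner RXR, classically at an inverted repeat of the hexamer AGGTCA with a 1-base spacer (IR1). Other nuclear receptors of the hepatocyte, such as HNF4A and PPARA, favour direct repeats of the same hexamer with a 1-base spacer (DR1). SINEs are short copies spread by the enzymes of LINEs. In the mouse they comprise rodent families (B2, B4, ID and the B1 elements, which the annotation calls Alu) and old families such as MIR. LINEs comprise L1, which is still active in the mouse, and the old families L2, CR1 and RTE-X. Such copies can carry words that resemble receptor binding sites, which is the reason for describing them by family here.

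The matches to IR1 (AGGTCANTGACCT, up to 2 mismatches over 12 scored bases, both strands) show words that resemble the receptor's classical site in peaks assigned to these repeats. Whether a match lay inside the named copy was not checked, here or for the other motifs. In each family, the match of the strongest Bcl6fl/fl peak that carried one within 100 bp of its centre and overlapped a Bcl6LKO peak is given with 10 bases on either side. The match is in capitals and the sequence was read from the GRCm38.p6 assembly, whose coordinates are those of mm10.
B4 family, ID_B1 near Nol4l, chr2:153554691-153554703, plus strand: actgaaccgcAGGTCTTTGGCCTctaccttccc
Alu family, PB1D9 near Acat3, chr17:12937759-12937771, plus strand: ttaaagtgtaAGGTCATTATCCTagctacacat
B2 family, B3A near Cldn5, chr16:18711890-18711902, plus strand: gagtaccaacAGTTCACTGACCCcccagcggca
MIR family, MIRb near Wwox, chr8:114561449-114561461, plus strand: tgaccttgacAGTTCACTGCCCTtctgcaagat
ID family, ID4_ near Ddah1, chr3:145760743-145760755, plus strand: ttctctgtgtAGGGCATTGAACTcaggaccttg
tRNA family, LFSINE_Vert near Gm15326, chr13:111936533-111936545, minus strand: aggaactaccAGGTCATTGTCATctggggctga
L1 family, Lx8 near A1bg, chr15:61100979-61100991, minus strand: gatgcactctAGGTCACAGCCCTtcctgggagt
L2 family, L2a near Tob1, chr11:94144894-94144906, minus strand: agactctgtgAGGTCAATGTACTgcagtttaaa
CR1 family, L3 near Gm30173, chr3:52468524-52468536, plus strand: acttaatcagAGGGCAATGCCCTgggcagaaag
RTE-X family, L4_A_Mam near Fam20a, chr11:109709642-109709654, plus strand: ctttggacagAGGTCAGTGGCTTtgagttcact

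All 10 of these matches had 2 mismatches, and their middles lay between 4 and 54 bp from the peak centre. ChIP values are given on the regularized log2 tag scale of the deposited tables. The weakest of the 10 peaks, in the L4_A_Mam copy of a Fam20a intron, had 5.83 and 6.28 in Bcl6fl/fl livers and 5.12 and 5.55 in Bcl6LKO livers. Its Bcl6LKO input of 2.98 was in the top 5% of inputs in that table, as was that near Gm30173 (2.493), and the input near Cldn5 (2.979) was so in the Bcl6fl/fl table. Among these 10, the strongest SINE peak and the strongest LINE peak are given whole, on the plus strand. The match is in capitals, to show how little of a peak it takes up.
ID_B1 near Nol4l, chr2:153554598-153554808: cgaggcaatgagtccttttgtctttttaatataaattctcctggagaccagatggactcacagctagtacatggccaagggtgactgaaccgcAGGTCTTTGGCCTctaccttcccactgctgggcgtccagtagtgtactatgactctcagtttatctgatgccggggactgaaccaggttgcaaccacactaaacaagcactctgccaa
Lx8 near A1bg, chr15:61100890-61101100: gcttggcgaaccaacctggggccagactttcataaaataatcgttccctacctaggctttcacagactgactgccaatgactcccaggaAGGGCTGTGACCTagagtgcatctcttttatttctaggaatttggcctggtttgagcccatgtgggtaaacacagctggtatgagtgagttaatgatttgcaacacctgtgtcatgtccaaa

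The Nol4l peak lay 24732 bp from the transcription start site (TSS) of Nol4l, between genes. Its ChIP values were 8.08 and 8.82 in Bcl6fl/fl livers and 8.61 and 8.68 in Bcl6LKO livers, and its input values were 0.14 and 0.55. The Lx8 peak near A1bg lay 179725 bp from the nearest annotated TSS. Its ChIP values were 7.33 and 8.10 in Bcl6fl/fl livers and 7.70 and 7.78 in Bcl6LKO livers, above inputs of 0.04 and 1.82. All ChIP values of both peaks lay far above their inputs, which every listed peak was required to do by the authors' filter.

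RSINE1, a subfamily of B4, was the most frequent single repeat name among the peaks, and a few of its peaks carried a different arrangement. IR1 and DR1 matches were both found in 23 of its 256 Bcl6fl/fl peaks. In 16 of the 23, the IR1 match lay more than 30 bases 3′ of the DR1 match. In the following 4 RSINE1 peaks, the strongest shared ones with both motifs and an IR1 match more than 30 bases 3′ of the DR1 match, both matches are in capitals, the DR1 match (AGGTCANAGGTCA, up to 2 mismatches) first and the IR1 match second.
RSINE1 near B4galt5, chr2:167332347-167332422, minus strand: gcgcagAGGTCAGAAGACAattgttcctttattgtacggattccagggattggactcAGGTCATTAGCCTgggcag
RSINE1 near Lipc, chr9:70940192-70940279, plus strand: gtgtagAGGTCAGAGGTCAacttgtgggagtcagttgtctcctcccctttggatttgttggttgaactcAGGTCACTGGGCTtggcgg
RSINE1 near Hsp90aa1, chr12:110707068-110707174, plus strand: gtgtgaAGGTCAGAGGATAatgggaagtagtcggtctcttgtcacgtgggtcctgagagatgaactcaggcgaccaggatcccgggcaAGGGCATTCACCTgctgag
RSINE1 near Cul1, chr6:47466624-47466730, plus strand: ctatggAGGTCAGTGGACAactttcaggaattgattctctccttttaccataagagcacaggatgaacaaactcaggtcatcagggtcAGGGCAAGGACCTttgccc

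The starts of the matches were 51, 63, 82 and 82 bases apart. The Lipc peak, in an intron of the hepatic lipase gene 5480 bp from its TSS, had ChIP values of 6.55 and 6.96 in Bcl6fl/fl livers and 6.47 and 6.26 in Bcl6LKO livers. Its DR1 match had 0 mismatches.

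Some peaks of ID_B1, another B4 subfamily, carried the hexamer with a 5′ extension, CAAGGTCA. The 3 strongest shared ID_B1 peaks with that word are given with it in capitals and 15 bases on either side.
ID_B1 near Tab2, chr10:8087416-8087453, minus strand: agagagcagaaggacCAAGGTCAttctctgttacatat
ID_B1 near Galntl5, chr5:25153748-25153785, plus strand: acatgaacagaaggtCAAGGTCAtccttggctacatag
ID_B1 near Scarb1, chr5:125274831-125274868, minus strand: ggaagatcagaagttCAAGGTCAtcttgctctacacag

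The peak near Tab2 had ChIP values of 5.92 and 6.03 in Bcl6fl/fl livers and 5.15 and 5.03 in Bcl6LKO livers, where its input of 2.97 was in the top 5% of inputs in the table. The peak near Galntl5 had such an input, 2.30, in the Bcl6fl/fl table. The peak near Scarb1, 66157 bp from the TSS of the HDL receptor gene, had 4.73 and 5.92 in Bcl6fl/fl livers and 5.15 and 4.08 in Bcl6LKO livers.

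By family, B4 was the most frequent in both lists, with 579 Bcl6fl/fl peaks (2.89% of the list) and 323 Bcl6LKO peaks (2.59%). L1 followed with 400 (2.00%) and 182 (1.46%), then Alu with 260 (1.30%) and 112 (0.896%), B2 with 244 (1.22%) and 140 (1.12%), and MIR with 201 (1.00%) and 128 (1.024%). L2 had 126 and 86 peaks, ID 31 and 20, and CR1 24 and 17. Deu (5 and 2), tRNA (5 and 5) and RTE-X (4 and 2) were rare. The peaks spread over 125 subfamilies in the Bcl6fl/fl list and 101 in the Bcl6LKO list, of which 22 had at least 20 Bcl6fl/fl peaks. RSINE1 led with 256 and 138 peaks. It was followed by ID_B1 (146 and 70), B4A (115 and 77), B3 (91 and 55), B2_Mm2 (89 and 46), MIRb (81 and 46) and Lx8 (62 and 41). Within L1, names starting with L1Md, L1_Mus, L1_Mur or L1_Rod held 31 Bcl6fl/fl peaks, Lx names held 142, and other names held 227.

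**Figure D1:**
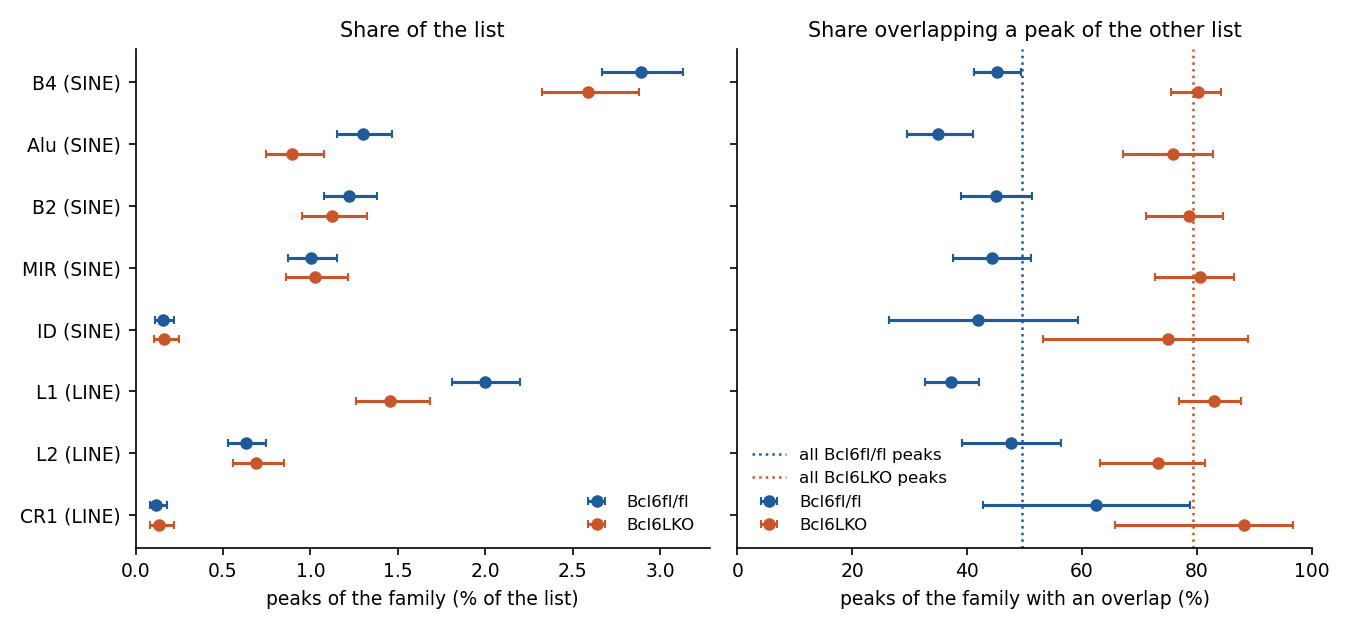
Left, share of each list (%) held by each family with at least 17 peaks in both lists, for Bcl6fl/fl (blue) and Bcl6LKO (orange), with 95% Wilson intervals over peaks. Right, share of the family's peaks that overlap a peak of the other list, with dotted lines at the value for all peaks (49.5% and 79.4%). The Alu, L1 and B4 intervals of the Bcl6fl/fl list end left of its line, at 41.0%, 42.1% and 49.3%.

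HOMER, the program that annotated the peaks, names a repeat only where no promoter or exon is named, so the peaks described here were all intronic or intergenic. Of the intronic and intergenic peaks alone, SINEs held 8.09% in the Bcl6fl/fl list and 7.15% in the Bcl6LKO list, and LINEs 3.38% and 2.81%. SINE peaks were intronic in 62.0% and LINE peaks in 50.2% of cases in the Bcl6fl/fl list, beside 56.7% of the other intronic or intergenic peaks. The median distance to the nearest TSS was 15.3 kb for SINE and 26.5 kb for LINE peaks, with 19.6 kb for the other intronic or intergenic peaks. Among the families above 100 peaks, it was shortest in B2 (10.7 kb) and Alu (12.4 kb) and longest in L1 (27.2 kb). In the Bcl6LKO list the medians were 16.05 kb for SINE and 25.2 kb for LINE peaks. The median GC content of the 201 bp around the centre was 47.8% in SINE and 45.3% in LINE peaks, beside 50.2% in peaks of neither class. At least 50% of the bases were soft-masked in the assembly, as repeat of any kind, in 362 SINE and 47 LINE peaks of the Bcl6fl/fl list. The median share masked was 61.1% in B2, 33.2% in B4, 11.4% in L1 and 0% in MIR, so the mask does not take in every annotated copy and does not measure how much of a peak the named repeat filled.

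The ChIP values of SINE and LINE peaks were slightly under those of other peaks, and their inputs were not higher. The median SINE peak had 4.22 and 4.77 regularized log2 tags in Bcl6fl/fl replicates 1 and 2 and −0.42 in the input. The median LINE peak had 4.07, 4.74 and −0.44, and the median peak of neither class 4.36, 4.92 and −0.38. In the Bcl6LKO list the SINE medians were 4.80, 4.64 and −0.03, the LINE medians 4.72, 4.51 and −0.07, and those of neither class 4.88, 4.68 and −0.02. Averaged over the replicates, the difference from peaks of neither class was −0.15 for SINE and −0.24 for LINE in the Bcl6fl/fl list, and −0.06 and −0.16 in the Bcl6LKO list. It had the same sign in each of the 4 ChIP libraries for both classes. Against intronic and intergenic peaks alone, it was −0.12 and −0.20 in the Bcl6fl/fl list, and −0.03 and −0.14 in the Bcl6LKO list. The interquartile range of the SINE peaks in replicate 1 of the Bcl6fl/fl list, 3.58 to 4.89, was far wider than these differences.

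Among families above 100 Bcl6fl/fl peaks, Alu (4.06 and 4.59) and L1 (4.003 and 4.67) had the lowest median ChIP values and MIR (4.31 and 4.92) the highest, with B4 at 4.29 and 4.85. CR1, with 24 peaks, reached 4.44 and 5.08. In the Bcl6LKO list the spread of families was smaller, with L1 at 4.68 and 4.48 and B4 at 4.89 and 4.71. Replicate 2 exceeded replicate 1 in the Bcl6fl/fl list and was under it in the Bcl6LKO list in every family shown in the plot of values by family, as in all peaks (4.34 and 4.91, and 4.87 and 4.68). Bcl6fl/fl replicate 2 had 2883717 tags, against 19022618 to 22637613 in the other ChIP libraries and 6935001 to 6964271 in the inputs. The median SINE peak held an estimated 8.19 tags in that library and 36.7 in replicate 1.

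**Figure D2:**
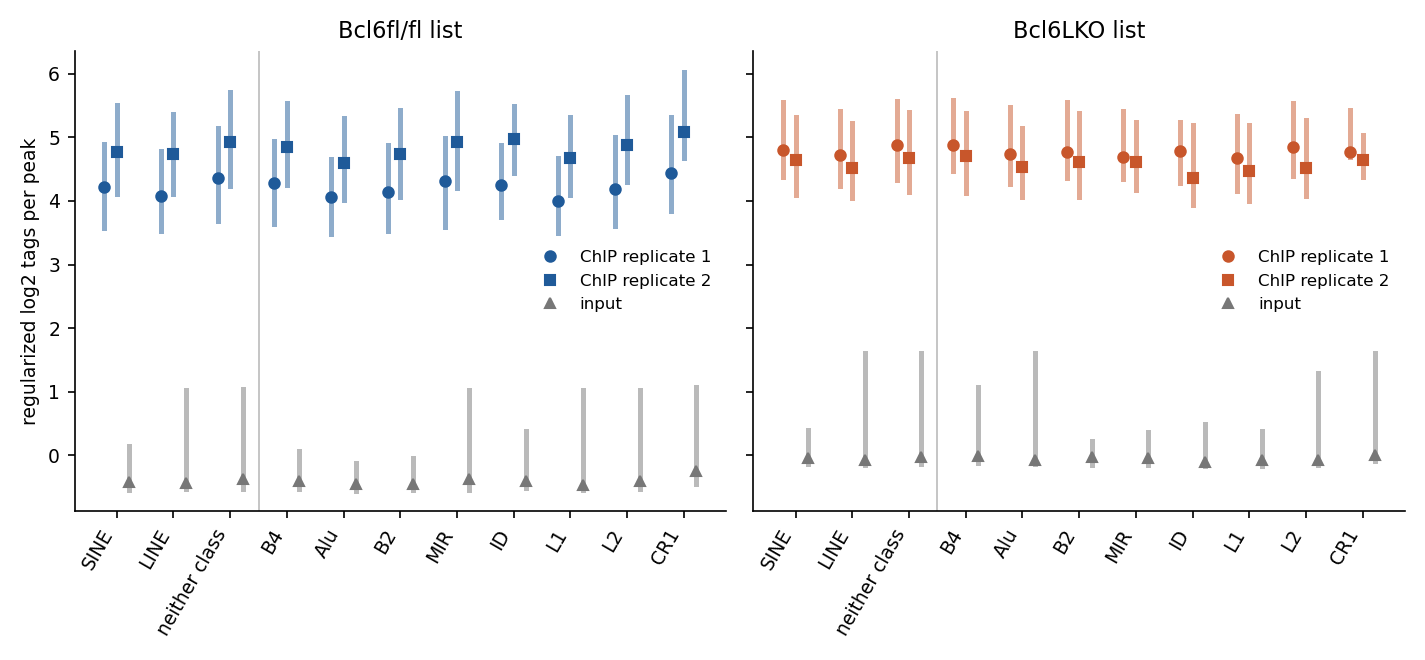
Median (points) and interquartile range (bars) of the regularized log2 tags per peak in ChIP replicates 1 and 2 and in the input, by class and family, for each list. Inputs lie near 0 and ChIP medians between 4.0 and 5.1 in every group, and the classes differ from peaks of neither class by less than the interquartile range.

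Peaks with an input above the 95th percentile of their table (1.85 in the Bcl6fl/fl list, 2.49 in the Bcl6LKO list) were counted by class. Places with high input and too little ChIP had already been removed by the authors' filter of ChIP over input. The counts therefore cannot show whether repeats collected high input, only how the listed peaks compare. By construction, 5% of each list lay above this limit. In the Bcl6fl/fl list it was passed by 37 SINE peaks (2.79%, Wilson interval 2.03 to 3.82) and 18 LINE peaks (3.25%, 2.07 to 5.08), beside 3.89% of the intronic and intergenic peaks of neither class. In the Bcl6LKO list it was passed by 20 SINE peaks (2.74%) and 8 LINE peaks (2.79%). The highest input was 3.21 in SINE and 2.66 in LINE peaks of the Bcl6fl/fl list, against 6.23 in a peak of neither class. All peaks above the limit lay in the stronger part of their list, at or above its median ChIP value, where 10% of all peaks passed. There, 6.25% of the SINE and 8.07% of the LINE peaks of the Bcl6fl/fl list did so, beside 7.87% of the intronic and intergenic peaks of neither class.

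SINE and LINE peaks of the Bcl6fl/fl list overlapped a Bcl6LKO peak less often than the list as a whole, while those of the Bcl6LKO list overlapped about as often as theirs. Of the SINE peaks in the Bcl6fl/fl list, 571 overlapped a Bcl6LKO peak by at least 1 bp (43.1%, 40.5 to 45.8), as did 226 LINE peaks (40.8%, 36.8 to 44.9). The share was 49.5% in the whole list and 50.04% in intronic or intergenic peaks of neither class, and 40.6% in LTR elements, another class of retrotransposon. In the Bcl6LKO list, 577 SINE peaks (79.0%, 75.9 to 81.8) and 231 LINE peaks (80.5%, 75.5 to 84.7) overlapped a Bcl6fl/fl peak, with 79.4% in the whole list. The intervals are 95% Wilson intervals over peaks, which cover counting error only, and no test was made between classes. The Bcl6fl/fl list is the longer, which by itself lowers the share that can overlap.

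Families ranged in this share. In the Bcl6fl/fl list, 35.0% of the Alu peaks (29.5 to 41.0) and 37.3% of the L1 peaks (32.7 to 42.1) had an overlap, as did 44.3% of MIR, 45.1% of B2, 45.3% of B4 and 47.6% of L2. CR1 had 62.5% of 24 peaks, with an interval of 42.7 to 78.8 that takes in the whole list's value. Among the 22 subfamilies, L3 (65.0% of 20 peaks), Lx8 (56.5%, 44.1 to 68.1), B4 itself (54.8%), L2a (52.9%) and B4A (52.2%, 43.1 to 61.1) stood at the upper end and PB1D10 (21.2% of 33 peaks, 10.7 to 37.8) at the lower end. Under the L1Md, L1_Mus, L1_Mur and L1_Rod names, 8 of 31 Bcl6fl/fl peaks (25.8%, 13.7 to 43.2) overlapped, and all 9 in the Bcl6LKO list did. Among Bcl6LKO families with at least 17 peaks, the share ran from 73.3% in L2 to 83.0% in L1 and 88.2% in CR1, and each interval took in 79.4%.

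The overlap followed ChIP value closely in both classes and in the remaining peaks. In the quintile of the Bcl6fl/fl list with the lowest ChIP values, 8.17% of the SINE, 8.87% of the LINE and 13.8% of the other peaks had an overlap. In the quintile with the highest values the shares were 95.3%, 93.8% and 92.6%. Weighting the 5 quintiles equally gave 46.9% for SINE, 46.6% for LINE and 49.8% for the other peaks in the Bcl6fl/fl list, and 79.3%, 82.1% and 79.3% in the Bcl6LKO list. In the Bcl6fl/fl list 16% of the SINE and 14.4% of the LINE peaks were in the top quintile, with 10% of the Alu peaks.

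**Figure D3:**
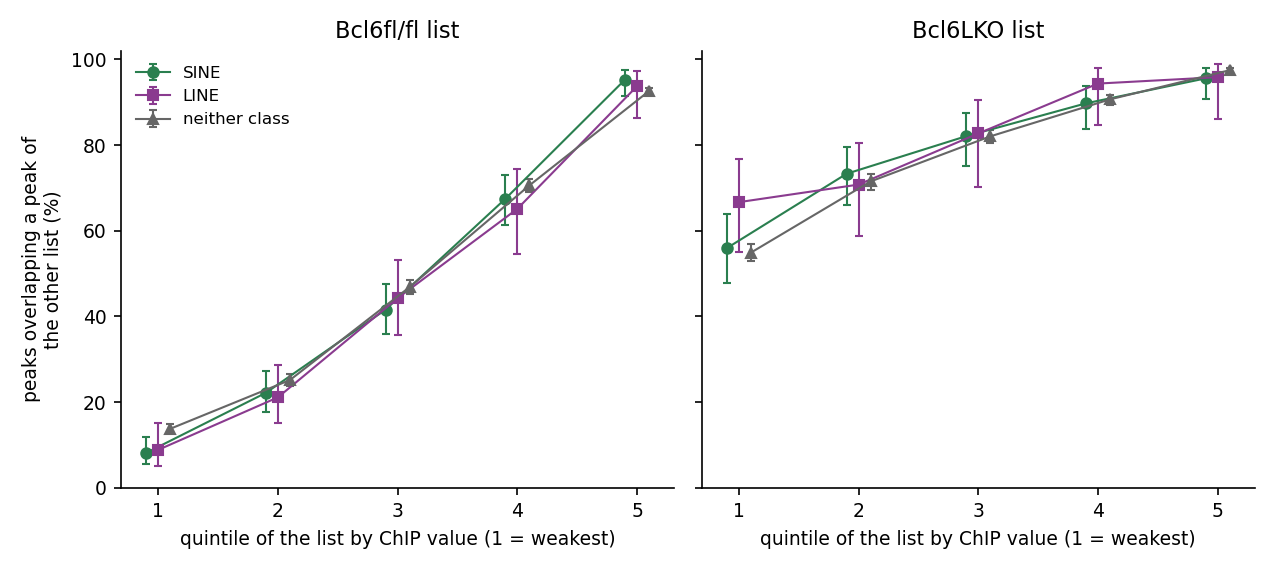
Share of peaks (%) that overlap a peak of the other list, by quintile of the mean ChIP value of their list (1 is the weakest), for SINE, LINE and the other peaks, with 95% Wilson intervals. In the Bcl6fl/fl list it climbs from 8.17% to 95.3% in SINE peaks and from 13.8% to 92.6% in the other peaks.

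Where a peak overlapped, the annotation usually named the same repeat in both lists. This held for 492 of the 571 shared SINE peaks of the Bcl6fl/fl list (86.2%) and 209 of the 226 LINE peaks (92.5%), with a median distance of 17 bp between the paired centres. Among 895 pairs in which either peak was in a SINE or LINE, both peaks were in 710.

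IR1 matches were about as frequent in the peaks of these repeats as elsewhere in the list, or somewhat more so. In the Bcl6fl/fl list, 14.3% of the SINE peaks (12.5 to 16.3) and 11.4% of the LINE peaks (8.99 to 14.3) had one, with 11.8% in all peaks. In windows of the same length shifted by 2 kb to either side, the shares were 0.642% for SINE, 0.451% for LINE and 0.896% for all peaks. On the Bcl6LKO side, 21.2% of the SINE (18.4 to 24.3) and 18.1% of the LINE peaks (14.1 to 22.99) had a match, with 16.2% in all peaks. B4A had the highest share among the subfamilies above 60 Bcl6fl/fl peaks, 29.6% (21.99 to 38.5) in the Bcl6fl/fl list and 41.6% (31.2 to 52.7) in the Bcl6LKO list. RSINE1 had 17.97% and 28.3%, and MIRb 18.5% and 19.6%. Matches lay near the peak centre, at a median of 15 bp in SINE and 20 bp in LINE peaks.

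SINE peaks with an IR1 match were stronger and more often shared. Their median ChIP value in the Bcl6fl/fl list was 4.94 against 4.42 without a match, and 70.9% (64.1 to 76.9) overlapped a Bcl6LKO peak against 38.5%. For LINE peaks the values were 4.86 and 4.34, and 55.6% (43.3 to 67.1) and 38.9%. For all peaks of the list the shares were 69.4% and 46.8%. Among Bcl6LKO peaks, 83.2% of the SINE peaks with a match overlapped a Bcl6fl/fl peak and 77.9% of those without, near the 82.0% and 78.9% of all peaks of that list. In LINE peaks the order was the opposite, 69.2% of 52 and 83.0%.

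DR1 matches were more frequent in RSINE1 than in any other subfamily plotted. On the Bcl6fl/fl side, 146 of its 256 peaks (57.0%, 50.9 to 62.9) had a DR1 match within 100 bp of the centre, as did 83 of 138 in the Bcl6LKO list (60.1%, 51.8 to 67.9). In all peaks it was 12.8% and 11.9%, in B4A 20% and 22.1%, and in windows 2 kb from the RSINE1 peaks 2.73% and 2.90%. The windows were not chosen to hold RSINE1, and how often RSINE1 copies outside peaks carry a DR1 match was not determined. Either motif was found in 66.02% and 73.2% of the RSINE1 peaks, beside 22.9% and 25.8% of all peaks, and both in 23 and 21. A DR1 match did not go with more overlap. Of the Bcl6fl/fl RSINE1 peaks with a match 42.5% (34.7 to 50.6) overlapped a Bcl6LKO peak, and of those without 45.5%.

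The RSINE1 peaks were centred to 1 side of the DR1 match. Read along the strand on which the match is a direct repeat of AGGTCA, 122 of the 146 Bcl6fl/fl peak centres (83.6%, 76.7 to 88.7) lay 3′ of the match, at a median of 43.5 bp with quartiles of 14 and 59.8 bp. On the Bcl6LKO side 73 of 83 did so (88.0%), at a median of 47 bp. These lists share peaks and are not independent. For DR1 matches in peaks of neither class the shares were 49.7% of 2214 and 50.7% of 1310, with medians of 0 and 1 bp. Of the 23 Bcl6fl/fl RSINE1 peaks with both motifs, 20 had the IR1 match 3′ of the DR1 match, and 16 had it more than 30 bp away, at a median of 53 bp over all 23. Only matches within 100 bp of the centre were searched, so larger offsets could not appear.

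The hexamer in these peaks came in distinct contexts by repeat. The word TCAGGTCA, chosen after the most frequent words of RSINE1 were seen, was in 73 of the 256 Bcl6fl/fl RSINE1 peaks (28.5%) at a median of 16.5 bp from the centre, with 3.41% in all peaks. It also stands 3′ of the DR1 match in the sequences given above near B4galt5, Lipc and Cul1. GGAGGTCA was in 68 peaks (26.6%) and lay farther out, at 49.5 bp, with 3.83% in all peaks. ID_B1 held CAAGGTCA in 39 of 146 Bcl6fl/fl peaks (26.7%) and 15 of 70 Bcl6LKO peaks (21.4%), and MIRb held it in 17 of 81 (20.99%) and 12 of 46 (26.1%), with 4.26% and 3.98% in all peaks.

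**Figure D4:**
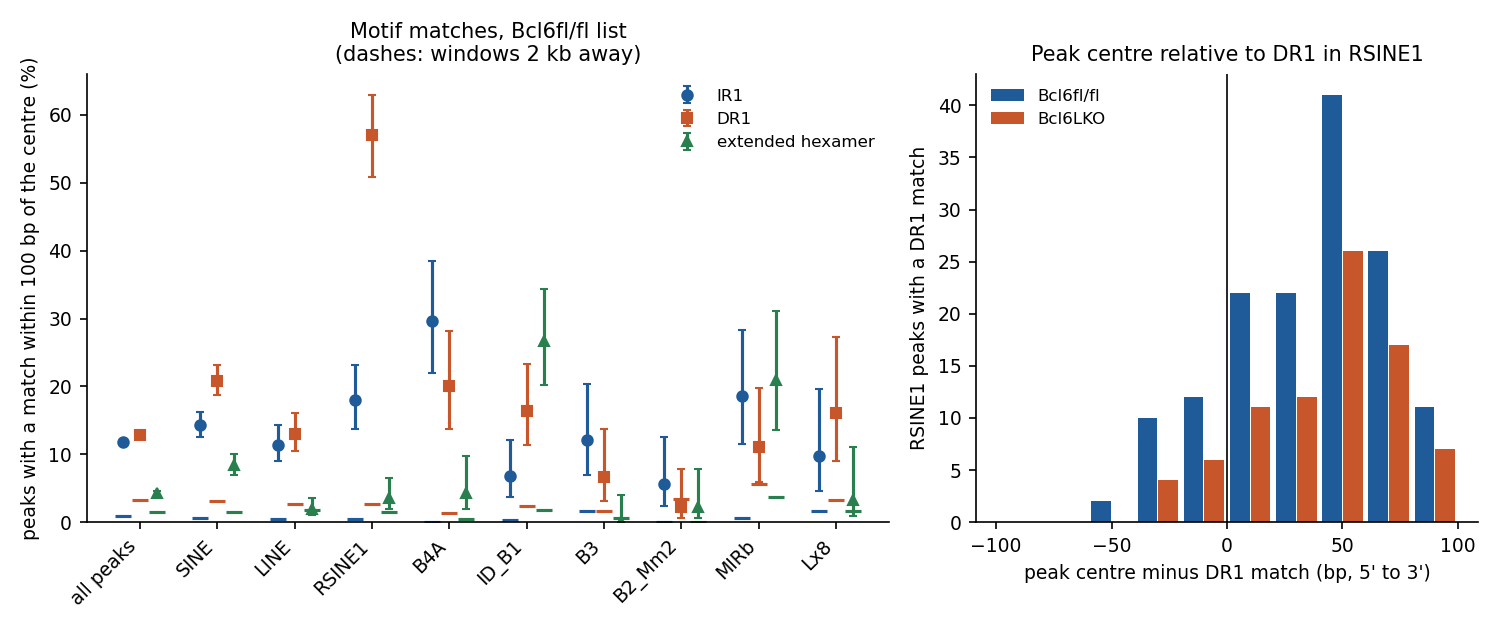
Left, share of Bcl6fl/fl peaks (%) with an IR1, DR1 or extended hexamer (CAAGGTCA) match within 100 bp of the centre, with 95% Wilson intervals, and the same share in windows 2 kb away (dashes). RSINE1 stands at 57.0% for DR1 and B4A at 29.6% for IR1. Right, number of RSINE1 peaks by the distance in bp from the DR1 match to the peak centre, read 5′ to 3′, for both lists. The most filled bin in both, with 41 and 26 peaks, is 40 to 60 bp on the 3′ side.

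The words that recurred most in the matches differed in how many genomic copies lay in a peak. AGGTCAGAGGACA made up 32 of the 146 DR1 matches of Bcl6fl/fl RSINE1 peaks (21.9%) and AGGTCAAAGGACA another 14 (9.59%). The first word has 8523 exact copies on the assembled chromosomes, counting both strands, of which 56 (0.657%) lay in a Bcl6fl/fl peak and 30 (0.352%) in a Bcl6LKO peak. The second has 1373 copies, of which 22 and 8 lay in peaks. DR1 matches of the whole B4 family held 120 words in 210 matches. Its IR1 matches, fewer in number, held 82 words in 106 matches. The most frequent, AGGTCATCGGCCT and AGGTCATTGAACT, occurred 4 times each. They have 25 and 98 genomic copies, of which 20% and 10.2% lay in Bcl6fl/fl peaks. In L1, AGGTCCTTGACCC led with 3 of 43 matches, and 5.86% of its 239 copies lay in Bcl6fl/fl peaks. Over the recurrent words of all families and subfamilies examined, the share in Bcl6fl/fl peaks ran from 2.04% to 20% for IR1. For DR1 it ran from 0.606% to 3.85%, so the ranges overlapped. All words were chosen because they recurred in Bcl6fl/fl peaks, which by itself raises these shares, most for words with few copies. The shares therefore cannot decide whether IR1 and DR1 words differ in how often they lie in peaks. The repeats that no peak covers were not analysed here, so these shares are over words and not over repeat copies.

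In peaks shared by both lists, FXR ChIP values were compared after each library was centred on its own median over the 9918 shared pairs, because the 2 tables were normalized separately. The differences in both classes centred near those of all pairs. The median Bcl6LKO minus Bcl6fl/fl difference was 0.02 in 571 SINE pairs (quartiles −0.33 and 0.43) and 0.03 in 226 LINE pairs (−0.39 and 0.45), with 0.03 in all pairs. Both Bcl6LKO libraries lay above both Bcl6fl/fl libraries in 172 SINE pairs (30.1%) and 70 LINE pairs (31.0%), beside 29.8% of all pairs. Both lay below in 150 SINE (26.3%) and 64 LINE pairs (28.3%), beside 25.2%. These shares are near those of all pairs. Centred on all peaks of each table instead, every median shifted downwards (all pairs to −0.45), so the differences are read only against all pairs.

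B4A and B3 stood highest among RSINE1, ID_B1, B4A and B3, the subfamilies above 40 pairs. Smaller subfamilies went farther both ways. Higher were L2 (0.40, 12 pairs), Lx7 (0.39, 11 pairs) and B1F1 (0.33, 12 pairs). Lower were, among others, B2_Mm2 (−0.15, 38 pairs) and the MIR subfamily (−0.30, 23 pairs). The median difference was 0.26 in the 60 B4A pairs, and the centred library medians were −0.12 and −0.30 in Bcl6fl/fl and 0.11 and −0.04 in Bcl6LKO, which do not overlap. Both Bcl6LKO libraries lay above in 26 of the 60 (43.3%) and below in 10 (16.7%), beside 29.8% and 25.2% of all pairs. In B3 the median difference was 0.26 over 42 pairs, with library medians of −0.18 and −0.33 in Bcl6fl/fl and 0.17 and 0.25 in Bcl6LKO. Its family B2 as a whole had a median difference of 0.0013 over 110 pairs. The MIR family went lower, with −0.10 over 89 pairs and library medians of 0.01 and 0.16 against −0.22 and −0.07. RSINE1 (−0.01) and ID_B1 (−0.01) stayed near 0. B4A and B3 were picked out by their values.

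**Figure D5:**
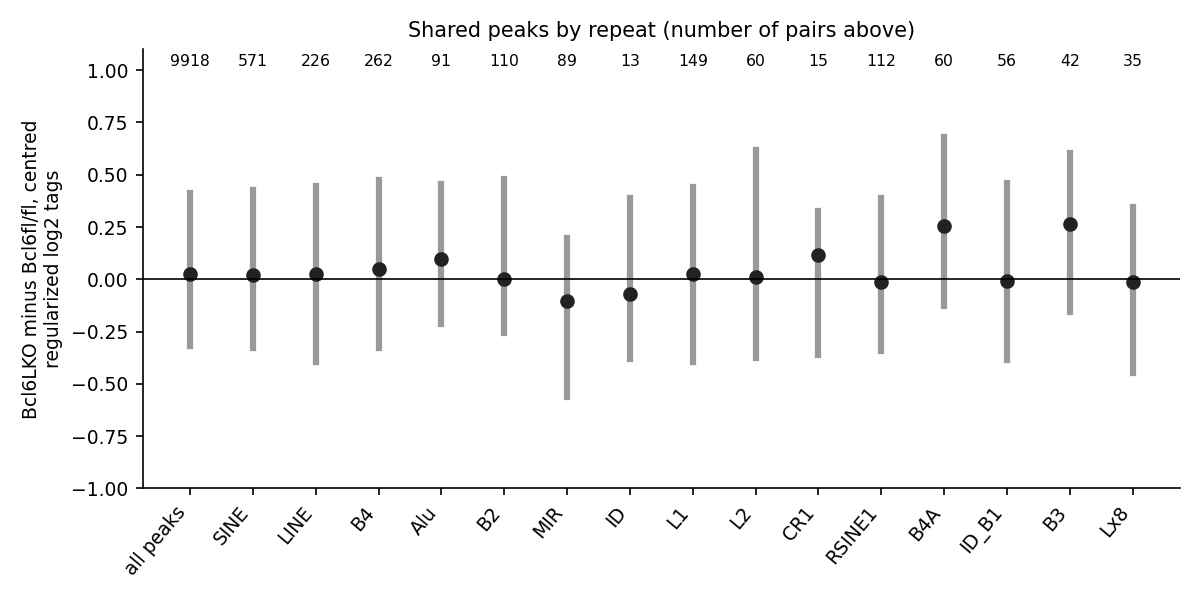
Median (points) and interquartile range (bars) of the Bcl6LKO minus Bcl6fl/fl difference in centred regularized log2 tags over shared pairs, by class, family and subfamily, with the number of pairs above. SINE and LINE lie at 0.02 and 0.03, like all peaks, and B4A and B3 at 0.26.

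Single peaks in repeats reached the top of each list. Among Bcl6fl/fl peaks, the strongest shared SINE peak was a B4A copy 16614 bp upstream of the TSS of Phyh, a peroxisomal enzyme of branched-chain fatty acid breakdown. The copy was annotated to an intron of a transcript other than the one starting there. It had ChIP values of 8.16 and 9.29 and an input of 0.18, and stood at the 99.9th percentile of the list. A B3 copy 1144 bp from Cth, an enzyme of cysteine synthesis, had 8.22 and 8.98 in the Bcl6fl/fl list and 8.50 and 8.31 in the Bcl6LKO list. A MIR copy 4344 bp from Tle3, a corepressor, had 8.24 and 8.90. The strongest shared LINE peaks were an L1M5 copy 3483 bp from Hmga1, an architectural chromatin protein, with 8.04 and 8.61, an L2 copy 42920 bp from Stk32a with 7.64 and 8.26 (its Bcl6LKO input of 2.55 was above the limit), and an L1MB3 copy 3023 bp from Pitpnm2os1 with 7.56 and 8.31. In all 6 the best IR1 match had 3 or more mismatches, so none counted as carrying one. Among Bcl6LKO peaks the strongest shared SINE peaks were the ID_B1 copy near Nol4l, the B3 copy near Cth and an RSINE1 copy 623229 bp from Ofcc1 (8.27 and 8.29).

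Strong peaks without an overlap were few and weaker. On the Bcl6fl/fl side the strongest SINE peaks of that kind were RSINE1 copies near Trpc4ap (6.60 and 7.40, with an input of 1.86 above the limit), Mir491 (5.84 and 6.10) and A630075F10Rik (5.51 and 6.38). The Mir491 peak had an IR1 match with 1 mismatch. The strongest LINE peaks were 3 L2 copies near Grik3 (6.41 and 6.53, IR1 with 1 mismatch), Ncoa5 (5.78 and 6.64) and AU019990 (4.96 and 6.33). On the Bcl6LKO side they were a B4A copy near Mroh2a (6.96 and 6.97, with a high input of 3.39), an ID_B1 copy near Cap2 (6.65 and 6.78) and a B3 copy near Usf3 (6.42 and 6.06) among SINEs. Among LINEs they were an Lx8 copy near Cacna1d (6.53 and 6.89) and L2a copies near B230323A14Rik (6.43 and 6.39, input 2.501 above the limit) and Arf2 (5.73 and 5.11). A peak missing from a list had not passed its filter, and the level there is not known.

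The bile acid genes, FXR's best known targets, had some of these peaks in both lists, at shares under and over those of the lists. Of 27 listed genes, 26 had any Bcl6fl/fl peak, 114 in all, of which 8 in 8 genes were in SINEs or LINEs (7.02%, beside 9.38% of the list). Among Bcl6LKO peaks it was 7 of 64 peaks (10.9%, beside 8.14%), in 7 of 23 genes. A pair of genes of bile acid synthesis and an uptake transporter had the same repeat peak in both lists. The best motif match of these peaks, within 100 bp of the centre, is given in capitals where there was any, with 10 bases on either side. The repeat named is the one annotated for the peak.
Cyp7a1, DR1 in L2b, chr4:6278651-6278663, minus strand: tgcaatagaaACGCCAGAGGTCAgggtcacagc
Klb, DR1 in RSINE1, chr5:65350710-65350722, plus strand: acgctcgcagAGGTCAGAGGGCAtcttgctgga
Slco1b2, IR1 in L1MB2, chr6:141642931-141642943, minus strand: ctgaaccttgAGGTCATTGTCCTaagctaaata
Abcc2, IR1 in Lx8, chr19:43809620-43809632, minus strand: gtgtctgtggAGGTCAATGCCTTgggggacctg

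Cyp7a1, the rate-limiting enzyme of classical bile acid synthesis, had a peak in an L2b copy 3049 bp from its TSS. Its ChIP values were 3.94 and 5.07 in Bcl6fl/fl livers with an input of 1.77, and 4.43 and 4.39 in Bcl6LKO livers with an input of −0.11. It stood at the 46.5th percentile of the Bcl6fl/fl list and the 34.0th of the Bcl6LKO list. Cyp27a1, the sterol hydroxylase of the alternative route, had the strongest, in a B1_Mur2 copy of an intron 8342 bp from the TSS, with 5.43 and 6.17 in Bcl6fl/fl and 4.81 and 5.10 in Bcl6LKO livers. Slco1b2, an uptake transporter of hepatocytes, had one in an intronic L1MB2 copy with 4.33 and 4.15, and 4.68 and 5.00. Its IR1 match had 1 mismatch.

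In the Bcl6fl/fl list alone, such peaks were in Nr1h4, which encodes FXR itself (B1F1 copy, 4.30 and 5.58), and in Klb, the FGF15 co-receptor (RSINE1 copy, 4.17 and 5.02). They were also in Slc27a5, which joins bile acids to coenzyme A (ID_B1 copy, 4.46 and 5.39), in Abcc3, a basolateral exporter (L1MB2 copy, 4.10 and 5.14), and in Nr5a2, which encodes LRH-1 (B3 copy, 2.80 and 3.75). The last of these lay at the 2.36th percentile of the list. On the Bcl6LKO side, such peaks without an overlap were in the exporter genes Abcc2 (Lx8 copy, 4.01 and 4.28) and Abcc4 (L2 copy, 4.65 and 3.63), and in Hsd3b7, an enzyme of bile acid synthesis (MIR copy, 4.25 and 3.70). Cyp2c70, which forms muricholic acids, had an ID2 peak in the Bcl6LKO list (4.31 and 3.93) that overlapped a Bcl6fl/fl peak annotated as intergenic without a repeat. The highest of these in its list was that in Nr1h4, at the 62.9th percentile.

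The other 8 gene lists held between 3.23% and 12.1% of their Bcl6fl/fl peaks in SINEs or LINEs, beside 9.38% of all Bcl6fl/fl peaks. Of their Bcl6LKO peaks they held between 0% and 9.38%, beside 8.14% of all Bcl6LKO peaks. Lipoprotein genes had 11 of 91 Bcl6fl/fl peaks, 8 in SINEs and 3 in LINEs, over 7 genes that included Abca1, Apoa1 and Lipc. Their strongest was an L2a copy 10700 bp from Scarb1, with 6.83 and 7.75 in Bcl6fl/fl and 7.26 and 7.06 in Bcl6LKO livers. Genes of glucose and insulin had 12 of 106, led by a PB1 copy 6065 bp from G6pc, the catalytic subunit of glucose-6-phosphatase, with 5.55 and 6.68 and, in Bcl6LKO livers, 6.44 and 6.16. Genes of fatty acids and sterols had 8 of 99, all in SINEs, led by a B4A copy 17667 bp from Fgf21, a hepatic hormone of fasting, with 6.55 and 6.96, and 6.94 and 6.99. The peak had an IR1 match with 0 mismatches. Genes of drug metabolism had 6 of 57, led by an Lx8 copy near Nr1i2, which encodes the xenobiotic receptor PXR, with 6.52 and 7.10, and 6.14 and 5.40, where the Bcl6fl/fl input of 1.851 was just above the limit. Hepatocyte transcription factors had 11 of 119, led by an L1MB2 copy near Stat5b, a mediator of growth hormone signalling, with 7.26 and 7.81, and 7.36 and 7.23. Clock genes had 5 of 55, led by a MIRc copy near Rora (6.55 and 7.06). Plasma protein genes had 5 of 90 and none of 57 in the Bcl6LKO list, and amino acid and urea genes had 3 of 93, led by the B3 copy near Cth. Values of the same repeat in both lists are on separate scales and are given side by side only.

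The shared pairs with the largest differences, among those in which both peaks reached the median ChIP value of their list, are given as centred values and were chosen for that difference. An intronic Lx8 copy 30444 bp from the TSS of Shoc2, a scaffold of RAS signalling, had 0.53 and 0.18 in Bcl6fl/fl and 2.61 and 2.66 in Bcl6LKO livers. An L2c copy near 1700092K14Rik had 0.01 and 0.07 against 2.13 and 2.13, and an L1MD copy near Tas2r134 had −0.32 and −0.49 against 0.82 and 0.87. The largest increases in SINEs were a MIRb copy near 1700049E22Rik (−0.61 and 0.05 against 1.78 and 1.06), a B2_Mm2 copy near Pnpla5 (0.08 and 0.40 against 1.64 and 1.74) and a B4 copy in Dip2c (−0.80 and −0.35 against 0.58 and 0.78). On the lower side were the LINE copies near Gcnt1 (Lx8, 1.32 and 1.44 against −0.64 and 0.53), 4930564C03Rik (L1ME1, 1.30 and 1.14 against −0.04 and 0.31) and Sos2 (Lx7, 1.13 and 1.16 against 0.30 and 0.20). The SINE copies were those near B4galt5 (B3, 1.58 and 1.56 against 0.39 and 0.33), R3hcc1l (B4A, 1.17 and 0.76 against −0.24 and 0.02) and Sppl3 (B1F, 1.09 and 1.64 against 0.69 and 0.17). Inputs, Bcl6fl/fl then Bcl6LKO and on separate scales, went with the ChIP values near 1700092K14Rik (−0.32 and 1.78), Tas2r134 (−0.38 and 1.70) and 4930564C03Rik (1.84 and −0.01). They went against them near B4galt5 (1.17 and 1.67) and Dip2c (1.05 and 0.07). In the other pairs both inputs lay between −0.38 and 0.39. The part of input in these differences was not tested. In all 12 the libraries of the genotypes did not overlap, which the choice by difference favours. The same was so in 5461 of all 9918 pairs (55.1%).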

How the data were processed

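The 4 FXR ChIP-seq and 2 input libraries of mouse liver were analysed from the deposited peak tables. Per the labels and methods, the authors crosslinked chromatin with DSG and formaldehyde, precipitated FXR, aligned single-end reads to mm10 with Bowtie, kept unique alignments and called peaks with HOMER on the pooled ChIP libraries against input. The submitters' processing notes name Bowtie 1.2 and HOMER 4.10. Unique alignment leaves out reads from near-identical young repeats, and its part in the counts was not tested. Only peaks that passed the authors' DESeq2 filter of ChIP over input were kept. The deposited tag columns were read as regularized log2 values, fitted by the authors for each table separately, from the header commands and from values that are not whole and partly below 0. The transform pulls low values together, so differences of weak peaks are understated. The deposited Peak Score is a signal of the pooled libraries. The deposited log2 fold change, p-value and adjusted p-value are the authors' own comparison of ChIP with input and were not used.

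Peaks of 211 bp (Bcl6fl/fl) and 205 bp (Bcl6LKO) were assigned to families from the deposited annotation and paired where they overlapped by at least 1 bp. Motifs were searched in 201 bp around the centre in the RefSeq assembly GRCm38.p6, where all peaks lay inside the chromosomes and 93.5% of the deposited TSS distances were found again within 2 bp. Of each share a 95% Wilson interval was computed with scipy 1.17.1. No test was run, since lists have no replicates and tables differ in scale. Depth ran from 2883717 to 22637613 tags per ChIP library. Alternatives covered the strength, tag and input filters, the overlap rule, list length, motif mismatches, averaging, centring, the replicate number as a block and each replicate left out. Overlap and motif code was tested on simulated data. The peaks, gene lists and measures were chosen with earlier results of these data known. Named were all families, subfamilies with at least 20 Bcl6fl/fl peaks, all peaks of the bile acid list, the 3 strongest shared and unshared peaks of each class and list, the strongest peak of each other gene list and the 3 largest differences in each direction per class.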

Additional observations from a re-analysis of the deposited data

How the results depend on the processing

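Of 96 alternative settings over 22 results, 44 left the value within its error and 52 moved it beyond. The sign turned in 4, all of them centred genotype differences. Some of these outcomes were fixed in advance, so the counts do not measure robustness. Leaving out 1 of 2 libraries cannot move a ChIP difference from other peaks beyond its error. Other settings, such as another input percentile or mismatch limit, redefine the measure. Values are given as SINE then LINE, for Bcl6fl/fl and then Bcl6LKO. Among peaks at or above the median ChIP value, the share of the list was 5.91% and 2.23%, and 1.95% for Bcl6LKO LINE. The share above the input limit there was 6.25% and 8.07%, and 5.85% and 6.56%, where 10% of all peaks passed, and IR1 shares were 19.4% and 15.7%, and 29.2% and 29.5%, beside 15.4% and 21.5% of all peaks. With at least 10 estimated tags in both ChIP libraries, the Bcl6fl/fl shares were 5.86% and 2.30%. With at least 50% of the peak soft-masked, shares were 1.81% and 0.235%, and 1.46% and 0.120%. Of intronic and intergenic peaks alone, a choice made after seeing the data, they were 8.09% and 3.38%, and 7.15% and 2.81%. Overlap with both lists at or above the median was 47.8% and 46.6%, and 87.4% and 85.2%, beside 53.0% and 85.04% of all peaks. In lists of the same length it was 64.6% and 62.3%, and 67.8% and 67.2%, beside 68.3%. Without high-input peaks it was 75.2% for Bcl6LKO SINE, beside 73.9%. At the 90th percentile of input, 7.09% and 7.76%, and 7.12% and 6.62% passed, beside 10% of all peaks. With at most 1 mismatch, IR1 shares were 3.32% and 2.71%, and 4.52% and 4.18%, beside 2.46% and 3.55% of all peaks.

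Using means, the ChIP difference from other peaks was −0.16 for Bcl6fl/fl SINE and −0.11 for Bcl6LKO LINE, and the centred genotype differences were 0.055 and 0.069. Against intronic and intergenic peaks alone, also chosen after seeing the data, the ChIP difference was −0.12 for Bcl6fl/fl SINE and −0.033 and −0.14 for Bcl6LKO. Centred on all peaks, the genotype differences were −0.46 and −0.45, as in all pairs (−0.45). In pairs at or above the median the SINE value was 0.058. Leaving out each ChIP library gave 0.0044 to 0.061 for SINE and −0.00079 to 0.10 for LINE, and the LINE value was −0.00079 without Bcl6fl/fl replicate 2 and −0.00070 without replicate 1. The same gave ChIP differences of −0.150 to −0.145 and −0.29 to −0.18 in the Bcl6fl/fl list, and −0.08 to −0.04 and −0.17 to −0.16 in the Bcl6LKO list. The cause of these shifts was not tested. The labels number the replicates of both genotypes but do not say that a number marks a shared animal or day. Over the 9918 pairs, the difference between replicates 1 and 2 in Bcl6fl/fl livers correlated with that in Bcl6LKO livers at r = 0.0061, a description across peaks. With the replicate number as a block, a choice made after seeing the data, the genotype differences were the same by construction, 0.021 and 0.026. Within number 1 the median differences were 0.052 and 0.024, and within number 2 −0.011 and 0.0024.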
